A study of Homo sapiens with 6 samples.

Results

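AP-1 and immediate early transcription factors were followed in HepG2 cells after knockdown of DGUOK, the mitochondrial kinase that phosphorylates deoxyguanosine and deoxyadenosine. The members are the 10 genes of a fixed list of symbols (FOS, FOSB, FOSL1, FOSL2, JUN, JUNB, JUND, ATF3, EGR1 and MAFF), each found once among the 34036 genes of the count table, and 10 of 10 passed the filter on low counts that left 14476 genes to test. HepG2 is a human line grown from a hepatocellular carcinoma and serves as a hepatocyte model, and all libraries came from cells in the same serum-containing medium, transfected with Lipofectamine RNAiMAX and harvested 48 h later. The labels name polyA RNA as the molecule, but the protocol does not settle how mRNA was selected. The siDGk group (3 cultures) received a pool of siRNAs against DGUOK and the siCON group (3 cultures) a non-targeting siRNA. The series design describes the cultures as independent biological replicates that were processed and sequenced together. The comparison asks which of these factors changed in RNA level after the knockdown.

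Library totals were 19065684, 18915508 and 10527216 counts in siCON replicates 1, 2 and 3 and 18613138, 15978314 and 21334876 counts in siDGk replicates 1, 2 and 3. Levels are given in CPM, counts scaled to a common library size after edgeR's TMM normalization. All 6 libraries carry the control siRNA in their treatment label, so the titles set the groups. DGUOK itself (ENSG00000114956.19, chr2:73926826-73958961) checked them, at 48.2 to 54.4 CPM in the siCON libraries and 6.72 to 10.5 CPM in the siDGk libraries, and it fell by 2.57 on the log2 scale (SE 0.19, adjusted p = 1.64e-08, edgeR's quasi-likelihood test with Benjamini-Hochberg adjustment). In a principal component analysis of log2 CPM the first component (41.7% of the variance) separated the groups. On the second (20.6%), siDGk replicates 2 and 3 stood apart at −61.4 and 63.7, whereas the siCON libraries lay between 1.62 and 4.37. Values without single libraries are therefore given where they change the call of a named gene.

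AP-1 is a dimer of basic leucine zipper proteins in which a Jun protein pairs with another Jun, a Fos protein or a relative such as ATF3. Its genes belong to the immediate early genes, which are transcribed soon after a stimulus without new protein synthesis, largely through MAP kinases acting on serum response factor, its ternary complex partners and existing Jun and ATF proteins. In liver, AP-1 is known for its part in hepatocyte proliferation during regeneration and in responses to stress and cytokines.

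In edgeR's test, 6 of the 10 members were higher in siDGk than in siCON cells and 0 were lower. Calls needed both an adjusted p under 0.05 and a log2 fold change beyond 0.5 in either direction, a rule that called 7.42% of the 14476 genes tested as higher, 6.68% as lower and 14.1% in either direction. FOSL1, EGR1, JUNB, JUN, ATF3 and MAFF were called higher. Earlier results of these data were known when the members were chosen, so their share only describes these 10 genes. At an unadjusted p under 0.05, 7 members were higher and 0 lower, beside 2290 and 2135 of the 14476 genes tested, and DESeq2 called 6 higher and 0 lower, beside 1032 and 980 of these genes. For 7 members every siDGk library lay above every siCON library, which held for 18.7% of all genes tested, and for 0 members every siDGk library lay below, which held for 17.3%. The median log2 fold change of the members was 0.72, beside 0.02 for all genes tested. In bulk RNA, a change in the number of cells that express a gene and a change in RNA per cell cannot be told apart.

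**Figure D1:**
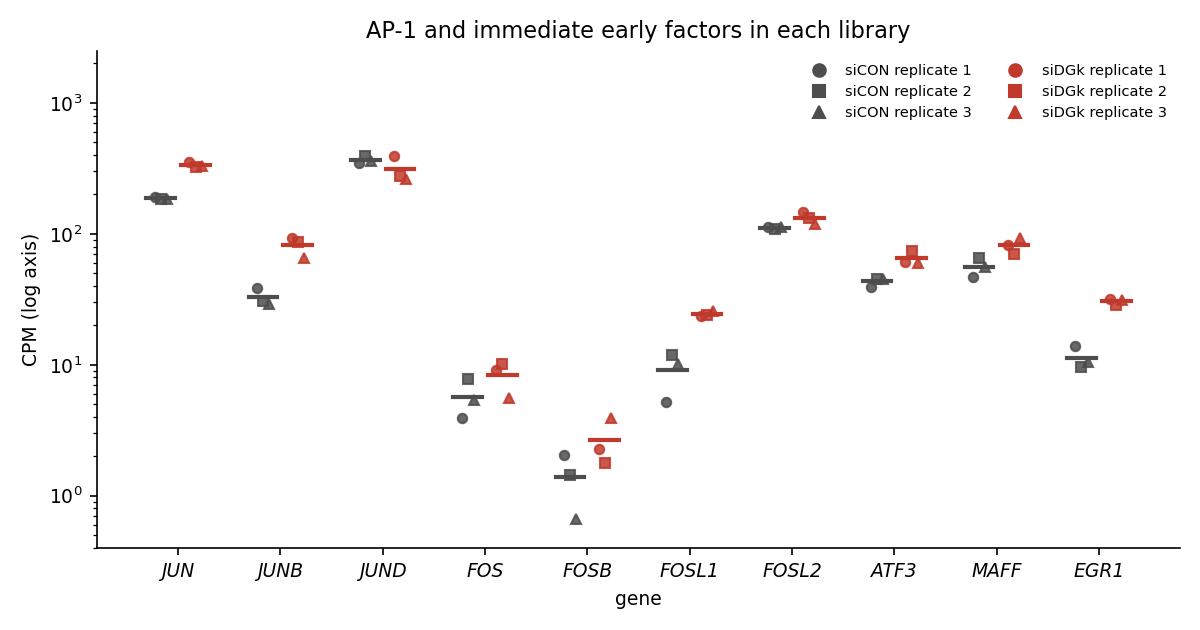
Level of each member in each library, in CPM on a log axis, with siCON libraries in grey and siDGk libraries in red and a horizontal line at each group mean (n = 3). The groups separate for JUN, JUNB, FOSL1, FOSL2, ATF3, MAFF and EGR1 and overlap for JUND, FOS and FOSB.

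Promoter windows were matched for 9 of the 10 members, as 11 windows of 250 bases before to 50 bases after a start site (RefSeq, GRCh38.p14), because ATF3 and MAFF had 2 each. The windows below belong to the Jun family and to the further members that held a searched motif other than TATAAA. Genes called higher can thus be read beside JUND and FOSL2, which were not called. Windows of FOS, FOSB and ATF3 are not printed. Each is printed 5′ to 3′ on the strand of its gene. Capitals mark matches to the AP-1 site TGANTCA, the cyclic AMP response element (CRE) TGACGTCA, the CArG box that serum response factor binds, or TATAAA, searched on both strands. The windows lie at chr1:58783998-58784297 (minus strand), chr19:12791236-12791535 (plus), chr19:18281573-18281872 (minus), chr2:28392608-28392907 (plus), chr5:138465229-138465528 (plus) and chr22:38201744-38202043 (plus).
JUN: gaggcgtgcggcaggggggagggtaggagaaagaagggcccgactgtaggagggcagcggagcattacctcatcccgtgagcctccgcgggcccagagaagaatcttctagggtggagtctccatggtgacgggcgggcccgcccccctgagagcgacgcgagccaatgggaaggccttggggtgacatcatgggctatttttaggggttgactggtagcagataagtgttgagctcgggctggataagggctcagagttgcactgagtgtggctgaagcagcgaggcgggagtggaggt
JUNB: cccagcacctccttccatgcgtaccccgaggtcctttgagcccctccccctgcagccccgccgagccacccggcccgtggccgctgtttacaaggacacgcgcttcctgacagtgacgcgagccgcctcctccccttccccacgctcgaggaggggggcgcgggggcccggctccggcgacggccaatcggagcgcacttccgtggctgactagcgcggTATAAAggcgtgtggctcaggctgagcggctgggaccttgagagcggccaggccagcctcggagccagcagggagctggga
JUND: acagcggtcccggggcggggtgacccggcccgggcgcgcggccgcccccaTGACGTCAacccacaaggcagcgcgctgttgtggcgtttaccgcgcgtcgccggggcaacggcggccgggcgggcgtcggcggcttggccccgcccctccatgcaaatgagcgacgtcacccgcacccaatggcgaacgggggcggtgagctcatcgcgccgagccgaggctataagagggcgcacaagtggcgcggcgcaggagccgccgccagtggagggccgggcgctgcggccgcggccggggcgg
FOSL2: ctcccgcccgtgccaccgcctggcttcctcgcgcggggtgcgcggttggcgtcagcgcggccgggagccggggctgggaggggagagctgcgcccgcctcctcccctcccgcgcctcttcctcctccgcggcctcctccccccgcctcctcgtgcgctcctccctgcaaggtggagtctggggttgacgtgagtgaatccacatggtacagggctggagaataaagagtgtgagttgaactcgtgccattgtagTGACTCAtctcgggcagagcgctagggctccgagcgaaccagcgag
EGR1: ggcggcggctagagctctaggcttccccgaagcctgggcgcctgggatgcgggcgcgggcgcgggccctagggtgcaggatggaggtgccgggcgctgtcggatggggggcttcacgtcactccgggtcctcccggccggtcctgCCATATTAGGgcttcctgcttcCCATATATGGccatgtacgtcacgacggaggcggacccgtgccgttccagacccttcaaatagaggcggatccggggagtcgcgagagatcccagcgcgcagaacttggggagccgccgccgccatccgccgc
MAFF: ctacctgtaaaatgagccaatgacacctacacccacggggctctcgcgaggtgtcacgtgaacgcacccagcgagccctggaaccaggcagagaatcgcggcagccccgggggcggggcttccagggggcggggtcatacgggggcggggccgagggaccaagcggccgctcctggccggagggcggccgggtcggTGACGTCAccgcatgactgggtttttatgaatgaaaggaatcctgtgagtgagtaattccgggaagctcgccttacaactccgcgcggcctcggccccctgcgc

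EGR1 held 2 CArG boxes, starting 105 and 83 bases before the start site, and a CArG box was present in 1.29% of all 35116 windows of this length and in 1.0% of the 10090 windows matched to genes tested. The CRE matched in the windows of JUND, 200 bases before the start, and of MAFF, 54 bases before it, beside 1.85% of all windows and 3.24% of those of genes tested. FOSL2 held the AP-1 site at base 5 after the start, and 7.71% of all windows and 4.71% of those of genes tested held it. TATAAA began 31 bases before the start in JUNB, 33 before it in FOS, 30 before it in FOSB and 230 before it in the second ATF3 window, and was present in 11.5% of all windows and 5.53% of those of genes tested. The EGR1 binding motif GCGTGGGCG was found in 0 of the 11 member windows and in 0.795% of all windows and 1.29% of those of genes tested. In the JUN window these letters did not occur. Matches are descriptions of the letters, and binding was not measured.

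JUN and JUNB rose in the siDGk cells, whereas JUND was not called. JUN (ENSG00000177606.6, chr1:58776845-58784048) encodes c-Jun, the strongest activator of its family. In siCON cells replicates 1, 2 and 3 held JUN at 191, 183 and 186 CPM, and in siDGk cells at 353, 323 and 329 CPM. Values below follow the same order of replicates. The groups lay far apart, with a spread of 4.23 CPM (SD) in siCON and 15.8 CPM in siDGk cells around means of 187 and 335 CPM. This was a fold change of 1.80, or 0.84 on the log2 scale (SE 0.08, adjusted p = 2.64e-07, edgeR's test with Benjamini-Hochberg adjustment), the smallest p among the members. JUN was called in all 12 refits that changed the normalization, the filter, the test, the blocking or the libraries used, with log2 fold changes between 0.79 and 0.87.

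JUNB (ENSG00000171223.5, chr19:12791486-12793315) encodes a Jun protein that activates less strongly than c-Jun and can restrain it. It was measured at 38.7, 30.8 and 29.4 CPM in the siCON libraries and at 92.9, 87.0 and 65.6 CPM in the siDGk libraries. The lowest siDGk value, that of replicate 3, was still above each siCON value. The fold change was 2.48, or 1.31 on the log2 scale (SE 0.15, adjusted p = 4.76e-06, edgeR's test with Benjamini-Hochberg adjustment). JUNB shares 259 exon bases (14.2% of its exon length) with HOOK2 on the opposite strand. Default counting uses no strand and leaves out reads on more than 1 gene, so reads there would enter neither count. HOOK2, named for this overlap, moved the other way, from 24.6 ± 2.89 to 12.5 ± 2.17 CPM (SD, n = 3), and was called lower with a log2 fold change of −0.98.

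JUND (ENSG00000130522.5, chr19:18279694-18281622) encodes the Jun protein that is widely expressed in resting cells. Its level was 345, 390.3 and 359.6 CPM in the siCON libraries and 391, 278 and 263 CPM in the siDGk libraries. The highest and the lowest of these 6 values were both from siDGk cells, so the groups overlapped. The log2 fold change was −0.23 (SE 0.11, adjusted p = 0.187, edgeR's test with Benjamini-Hochberg adjustment). Without siDGk replicate 1 it was −0.45 with an adjusted p of 0.00234 in edgeR's test with the same adjustment, still short of the fold change threshold. Over the 12 refits the log2 fold change of JUND lay between −0.45 and −0.13 and its adjusted p between 0.00234 and 0.556.

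Among the Fos genes, FOSL1 rose and FOS, FOSB and FOSL2 were not called. FOSL1 (ENSG00000175592.8, chr11:65892049-65900573) encodes FRA1, which lacks the transactivation domain of c-Fos and is itself induced through AP-1. It stood at 5.23, 11.8 and 10.2 CPM in the siCON libraries and at 23.8, 24.1 and 25.8 CPM in the siDGk libraries. The siDGk values were close together, while siCON replicate 1 was well below the other 2 siCON libraries. The fold change was 2.72, or 1.44 on the log2 scale (SE 0.26, adjusted p = 0.000582, edgeR's test with Benjamini-Hochberg adjustment). Without siCON replicate 1 the log2 fold change was 1.16, the smallest among the fits that left out 1 library, and FOSL1 was called in each of them.

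FOSL2 (ENSG00000075426.11, chr2:28392448-28417317) encodes FRA2, the relative of FRA1, and its window with the AP-1 site is printed above. Its level was 113, 108 and 114 CPM in the siCON libraries and 147, 133 and 119 CPM in the siDGk libraries. The groups did not overlap, but siDGk replicate 3 was close to the siCON values. With a log2 fold change of 0.25 (SE 0.10, adjusted p = 0.0855, edgeR's test with Benjamini-Hochberg adjustment) it was not called, and in the 12 refits it lay between 0.15 and 0.32.

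FOS (ENSG00000170345.9, chr14:75278826-75282230), the gene of c-Fos and the prototype of the immediate early genes, was low. It was counted 74, 146 and 56 times in the siCON libraries and 169, 165 and 122 times in the siDGk libraries, or 3.95, 7.78 and 5.34 against 9.13, 10.2 and 5.61 CPM. The groups overlapped because siCON replicate 2 was above siDGk replicate 3. The log2 fold change was 0.54 with an SE of 0.37 (adjusted p = 0.362, edgeR's test with Benjamini-Hochberg adjustment). FOSB (ENSG00000125740.13, chr19:45467995-45475179), a close relative of FOS, was counted 7 to 38 times in the siCON libraries and 29 to 85 times in the siDGk libraries. Its levels, 2.03, 1.44 and 0.667 CPM against 2.27, 1.79 and 3.91 CPM, overlapped. Its log2 fold change of 0.93 had an SE of 0.77 (adjusted p = 0.473, edgeR's test with Benjamini-Hochberg adjustment). The estimates moved widely when 1 library was left out, between 0.33 (without siCON replicate 1) and 0.84 (without siCON replicate 2) for FOS and between 0.53 (without siDGk replicate 3) and 1.31 (without siCON replicate 1) for FOSB, and DESeq2's shrunken value for FOSB was 0.33. Neither gene was called in any of the 12 refits, which does not show that its level did not differ.

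ATF3 and MAFF rose by about the same factor, close to the threshold. ATF3 (ENSG00000162772.16, chr1:212565334-212620777) encodes a stress-induced ATF family protein that dimerizes with Jun proteins. Its level was 39.5, 45.4 and 45.3 CPM in the siCON libraries and 61.1, 73.9 and 60.4 CPM in the siDGk libraries. No siDGk value reached down to the siCON range, and siDGk replicate 2 was the highest. The fold change was 1.50, or 0.59 on the log2 scale (SE 0.13, adjusted p = 0.00343, edgeR's test with Benjamini-Hochberg adjustment). Without siDGk replicate 2 the log2 fold change was 0.49 and the call was lost at the fold change threshold, with an adjusted p of 0.0267 in edgeR's test with the same adjustment, the highest over the 12 refits, in which the lowest was 0.000296.

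MAFF (ENSG00000185022.11, chr22:38200767-38216507) encodes a small Maf protein, a basic leucine zipper factor without a transactivation domain, and its window with the CRE is printed above. Its level was 46.9, 64.8 and 55.5 CPM in the siCON libraries and 82.5, 69.8 and 93.5 CPM in the siDGk libraries. The gap between the groups was small, from siCON replicate 2 to siDGk replicate 2. The fold change was 1.47, or 0.56 on the log2 scale (SE 0.14, adjusted p = 0.00739, edgeR's test with Benjamini-Hochberg adjustment). The call was lost at the fold change threshold without siCON replicate 1, where the log2 fold change was 0.45, and without siDGk replicate 3, where it was 0.44. MAFF shares 326 exon bases (5.8% of its exon length) with PLA2G6 on the opposite strand. PLA2G6, named for this overlap, was low in siCON (3.41 ± 0.942 CPM) and siDGk cells (1.39 ± 0.461 CPM; SD, n = 3).

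EGR1, the member outside the leucine zipper families, rose by nearly the same factor as FOSL1. EGR1 (ENSG00000120738.7, chr5:138465479-138469303) encodes a zinc finger factor that serum response factor and its ternary complex partners are known to induce, and its window is printed above. Its level was 13.8, 9.70 and 10.5 CPM in the siCON libraries and 31.8, 28.6 and 31.3 CPM in the siDGk libraries. All siDGk values were more than 10 CPM above the highest siCON value, that of replicate 1. The fold change was 2.69, or 1.43 on the log2 scale (SE 0.20, adjusted p = 4.26e-05, edgeR's test with Benjamini-Hochberg adjustment). In the fits that left out 1 library the log2 fold change was at least 1.32, the value without siCON replicate 2.

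**Figure D2:**
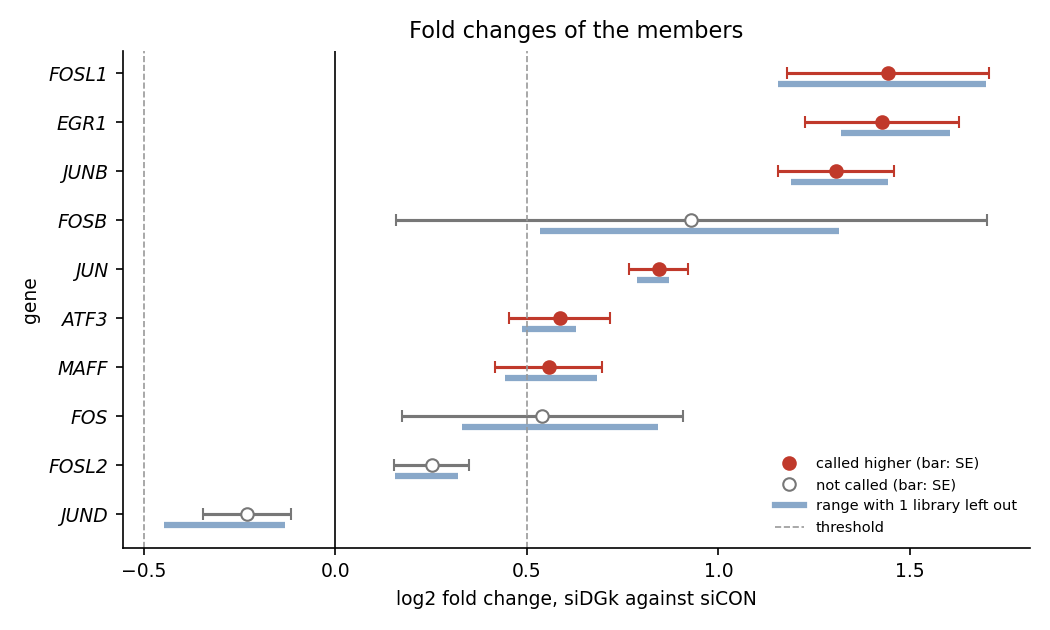
Log2 fold change of each member, siDGk against siCON, with its standard error from edgeR's fit (filled red circles, called higher; open circles, not called) and, in blue, the range over the 6 fits that each left out 1 library. Dashed lines mark the threshold of 0.5 in either direction, which the blue ranges of ATF3, MAFF and FOS cross.

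Per kilobase of exon, which allows a rough comparison between genes, the members had the same order in both groups. The length is that of all annotated exons of a gene merged. A gene whose expressed transcripts use only part of it therefore appears lower, here and in the family shares below. In siCON cells JUND led with 189 ± 12.1 CPM per kilobase (SD, n = 3), followed by JUN with 51.5 ± 1.17. JUNB (18.0 ± 2.74) and FOSL2 (15.6 ± 0.405) differed by less than the larger SD of the pair. So did ATF3 (10.9 ± 0.847) and MAFF (9.93 ± 1.59), and FOSL1 (4.81 ± 1.81) and EGR1 (3.61 ± 0.700 CPM per kilobase). Within each siCON library JUNB was nevertheless above FOSL2, most narrowly in replicate 3 at 16.0 and 15.9 CPM per kilobase. No test compared genes within libraries. FOS at 1.79 ± 0.608 and FOSB at 0.248 ± 0.123 CPM per kilobase came last. In siDGk cells the level of JUND was 161 ± 36.3, that of JUN 92.5 ± 4.37 and that of JUNB 44.7 ± 7.85 CPM per kilobase, the last now apart from FOSL2 at 18.5 ± 1.99. FOSL2 was above ATF3 (16.3 ± 1.90) by more than either SD, whereas ATF3 and MAFF (14.6 ± 2.12), and MAFF and FOSL1 (13.0 ± 0.583 CPM per kilobase), differed by less than the larger SD of the pair. EGR1 followed with 9.75 ± 0.544, FOS with 2.61 ± 0.748 and FOSB with 0.478 ± 0.201 CPM per kilobase.

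The make-up of the Jun family shifted away from JUND. Of the summed Jun level per kilobase, JUND made up 70.7%, 75.0% and 73.5% in the siCON libraries and 57.8%, 51.3% and 51.9% in the siDGk libraries, with no overlap. The share of JUN was 19.9% ± 1.11 in siCON and 31.3% ± 3.39 in siDGk cells, and that of JUNB 6.98% ± 1.20 and 15.0% ± 1.71 (SD, n = 3). The ratio of JUN to JUND per kilobase was 0.273 ± 0.0230 in siCON and 0.588 ± 0.0961 in siDGk cells (SD, n = 3). These shares and ratios are taken within a library, so its scaling cancels. The summed Jun level was 259 ± 9.55 and 299 ± 46.5 CPM per kilobase (SD, n = 3), a difference smaller than the spread of the siDGk libraries.

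In the Fos family the share of FOSL1 was 13.8%, 25.9% and 23.4% in the siCON libraries and 34.6%, 36.6% and 41.8% in the siDGk libraries. FOSL2 remained the largest part in each library, at 69.9% ± 7.78 in siCON and 53.4% ± 2.89 in siDGk cells (SD, n = 3). FOS made up 7.86% ± 2.06 and 7.47% ± 1.92, and FOSB 1.14% ± 0.649 and 1.40% ± 0.661 (SD, n = 3), so neither share moved beyond its spread. The summed Fos level was 22.4 ± 2.03 in siCON and 34.6 ± 1.86 CPM per kilobase in siDGk cells (SD, n = 3), and the lowest siDGk sum, 32.7, was above the highest siCON sum, 24.0 CPM per kilobase. The make-up was described without a test.

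**Figure D3:**
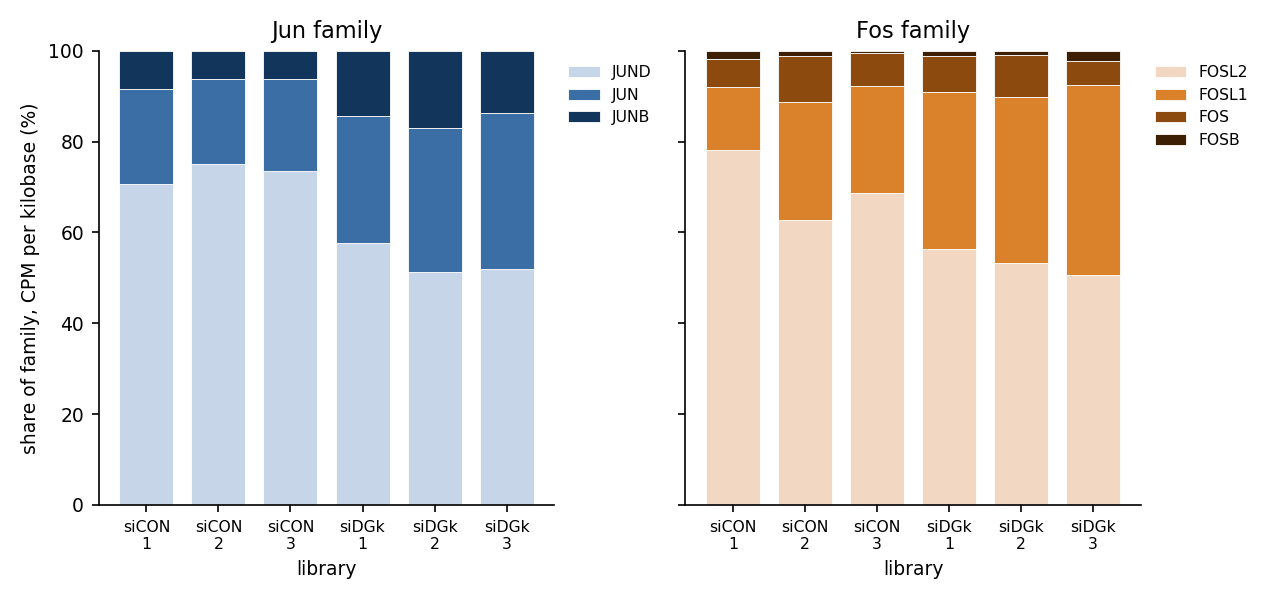
Share of each gene in the summed level of its family per library, in percent of CPM per kilobase of exon, for the Jun family (blue) and the Fos family (brown). The JUND part is between 51.3% and 57.8% in the siDGk libraries and between 70.7% and 75.0% in the siCON libraries, and the FOSL1 part is larger in all siDGk libraries than in any siCON library.

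The members differed in how closely the replicates agreed. The coefficient of variation of JUN was 2.27% in siCON and 4.72% in siDGk cells, below the medians of 10.8% in both groups over the 9226 genes averaging 10 CPM or more. JUND varied by 6.38% among siCON and 22.5% among siDGk libraries. FOSL1 varied by 37.6% among siCON but 4.48% among siDGk libraries, and EGR1 by 19.4% and 5.58%. FOS (34.0% and 28.7%) and FOSB (49.6% and 42.0%), the members with the lowest levels, varied widely in each group.

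Other genes were ranked by how closely they followed JUN and JUNB, the members with the smallest p, over the 6 libraries. The measure was the root mean square difference in log2 CPM relative to the siCON mean, over 9225 other genes averaging 10 CPM or more. COX20, PCBP4, LINC00511, RHOB and CSF1 were nearest to JUN, at differences of 0.0544 to 0.0592. PAQR3, SEMA3A, MPZL2, KIZ and GPAT3 were nearest to JUNB, at 0.165 to 0.181.

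Of 27 other AP-1 and related leucine zipper genes tested, 1 was called higher and 1 lower, that is 3.70% in each direction beside 7.42% and 6.68% of all genes tested, with a median log2 fold change of 0.05 beside 0.72 for the members and 0.02 for all genes tested. The lists here and below were chosen with earlier results of these data known, so their shares only describe the genes listed. BATF, which pairs with Jun proteins in lymphocytes, rose from 2.93 ± 1.31 to 8.61 ± 2.95 CPM (SD, n = 3), a log2 fold change of 1.53 (SE 0.42, adjusted p = 0.0134, edgeR's test with Benjamini-Hochberg adjustment). Its call was lost without siCON replicate 1, without siCON replicate 3 and without siDGk replicate 2, with log2 fold changes of 1.45, 1.30 and 1.22. DESeq2's shrunken log2 fold change was 0.87. CEBPA, a factor of the differentiated hepatocyte, fell from 121 ± 6.86 to 55.8 ± 6.76 CPM (SD, n = 3), a log2 fold change of −1.12 (SE 0.11). ATF4, the main factor of the integrated stress response and the most abundant gene of the list per kilobase, averaged 468 ± 24.0 and 600 ± 22.6 CPM (SD, n = 3), and its log2 fold change of 0.36 was below the threshold.

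Of 26 other immediate early genes tested, 14 were called higher and 2 lower, that is 53.8% and 7.69% beside 7.42% and 6.68% of all genes tested, and the median log2 fold change was 0.55. Earlier results of these data were known when the list was chosen. DESeq2, run without the filter on low counts, called 13 higher and 2 lower among all 30 genes of the list. NR4A2, an orphan nuclear receptor, rose from 0.426 ± 0.141 to 4.33 ± 1.72 CPM (SD, n = 3), a log2 fold change of 3.33 (SE 0.75) that rests on 5 to 10 counts in each siCON library and was 1.17 when shrunken in DESeq2. IER3, a stress-inducible survival gene, rose from 162 ± 10.7 to 358 ± 23.2 CPM (SD, n = 3), a log2 fold change of 1.15 (SE 0.08). CTGF, a matricellular protein gene and YAP target, fell from 347 ± 17.9 to 182 ± 18.7 CPM (SD, n = 3), a log2 fold change of −0.93 (SE 0.09). The calls of EGR3, KLF4 and SGK1 were lost in several refits. EGR3, a relative of EGR1, had a log2 fold change of 2.80 (SE 0.90) at 4 to 68 counts per library, and its call was lost without siCON replicate 1 (3.11), 2 (2.61) or 3 (2.73) or siDGk replicate 1 (2.84) or 2 (2.51), with the replicate block and without a count filter, and its shrunken value in DESeq2 was 0.87. The call of KLF4, a zinc finger factor, at 1.31 (SE 0.44) was lost with siCON replicate 2 (0.91) or 3 (1.43) or siDGk replicate 1 (1.17) or 3 (1.28) left out, and in DESeq2, where its shrunken value was 0.71. SGK1, a serum-induced kinase gene and the other lower call, had −1.42 (SE 0.38), which was −2.00 without siDGk replicate 1 and −1.004 without siDGk replicate 3, and it was not called without siCON replicate 1 (−1.43), siCON replicate 2 (−1.46), siCON replicate 3 (−1.36) or siDGk replicate 2 (−1.44). The remaining 10 of the 26 genes tested were not called. Of these, ID1 and MCL1, the most abundant per kilobase, had log2 fold changes of 0.31 and 0.30, below the threshold.

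Among 26 genes of the MAP kinase pathways that carry signals to the members, 1 was called higher and 1 lower, that is 3.85% in each direction beside 7.42% and 6.68% of all genes tested, and the median log2 fold change was 0.00. MAP2K1, the gene of the MAP kinase kinase MEK1, rose from 58.3 ± 6.32 to 94.4 ± 3.94 CPM (SD, n = 3), a log2 fold change of 0.69 (SE 0.11). RPS6KA3, the gene of the ribosomal S6 kinase RSK2, fell by 0.57 on the log2 scale (SE 0.11), and it fell short of the threshold without siCON replicate 1 (−0.45) and without siDGk replicate 3 (−0.48). NRAS, a small GTPase gene upstream of the kinases, was not called, at 106 ± 14.7 and 124 ± 4.18 CPM (SD, n = 3).

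Of 14 genes for dual-specificity phosphatases, Sprouty and SPRED proteins, which inhibit MAP kinase signaling and are induced by it, 7 (50%) were called higher and 0 lower in edgeR's test, beside 7.42% and 6.68% of all genes tested, with a median log2 fold change of 0.56. These genes, too, were chosen with earlier results of these data known. At an unadjusted p under 0.05 the counts were 8 and 1, and DESeq2, run without the filter on low counts, called 7 and 0 among all 15 genes of the list. DUSP5, a nuclear MAP kinase phosphatase gene, rose from 48.7 ± 6.28 to 159.6 ± 6.27 CPM (SD, n = 3), and DUSP4 from 6.85 ± 1.41 to 41.0 ± 3.27 CPM (SD, n = 3), log2 fold changes of 1.71 (SE 0.11) and 2.56 (SE 0.20). SPRY4 rose from 29.2 ± 0.624 to 68.5 ± 7.78 CPM (SD, n = 3). DUSP16, a JNK phosphatase gene, had a log2 fold change of −0.47, short of the threshold, and was called lower without siCON replicate 2 (−0.53), siDGk replicate 1 (−0.53) or siDGk replicate 3 (−0.52).

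Serum response factor, its ternary complex partners and the EGR1 corepressors made up 8 genes tested, of which 2 (25.0%, beside 7.42% of all genes tested) were called higher and 0 lower (3 and 0 at an unadjusted p under 0.05 in edgeR's test, 2 and 0 in DESeq2), with a median log2 fold change of 0.14. SRF, the serum response factor gene, was at 79.0 ± 2.10 and 75.6 ± 5.70 CPM (SD, n = 3). ELK3, a ternary complex factor, rose from 12.0 ± 3.89 to 45.5 ± 6.98 CPM, and NAB2, a corepressor that EGR1 induces and that binds it, from 30.1 ± 3.42 to 50.6 ± 2.74 CPM (SD, n = 3). Among 9 genes of AP-1 protein turnover and mRNA decay, edgeR's test called 2 (22.2%) higher and 0 lower, as at an unadjusted p under 0.05 and in DESeq2, and the median was −0.04. They were ZFP36L1, which destabilizes AU-rich mRNAs, with a log2 fold change of 1.26 (SE 0.10), and ITCH, a ubiquitin ligase of JUN and JUNB, with 0.70 (SE 0.09).

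Of 20 genes tested that AP-1 is known to activate, 12 (60.0%) were called higher, beside 7.42% of all genes tested, and 0 lower, with a median log2 fold change of 1.71. Because this list was chosen with earlier results of these data known, its share is not an independent measure of AP-1 activity. At an unadjusted p under 0.05 in edgeR's test 15 were higher and 0 lower. DESeq2, run without the filter on low counts, called 14 higher and 0 lower among all 27 genes of the list. IL11, a cytokine of the gp130 family, rose from 9.43 ± 4.12 to 209.7 ± 26.9 CPM, and CXCL8, the neutrophil chemokine, from 16.5 ± 0.700 to 222 ± 33.4 CPM (SD, n = 3), log2 fold changes of 4.53 (SE 0.24) and 3.75 (SE 0.12). For IL11, DESeq2's shrunken value was 2.99. AREG, a ligand of the EGF receptor, rose from 51.0 ± 7.80 to 258 ± 27.3 CPM (SD, n = 3). PLAU, the urokinase gene, rose from 2.10 ± 2.01 to 19.9 ± 4.61 CPM (SD, n = 3), a log2 fold change of 3.20 (SE 0.47). The PLAU value rests on 11 to 82 counts in each siCON library and was 1.72 when shrunken in DESeq2. With 1 library left out it lay between 2.72 and 4.46. VIM and CD44, named after their values were seen, also enter the median but were not called, at log2 fold changes of 5.38 (SE 1.45) and 2.83 (SE 1.46). In siDGk replicates 1, 2 and 3, VIM was at 57.0, 58.6 and 2.67 CPM and CD44 at 3.73, 11.1 and 0 CPM, beside at most 1.28 and 1.17 CPM in siCON libraries. Without siDGk replicate 3 they were called, at 5.93 and 3.38, and with the replicate block too. DESeq2 also called VIM, although its shrunken value was 0.68. CD44 was called without a count filter but not in DESeq2, where its shrunken value was 0.11. Leaving out siDGk replicate 2 brought CD44 to a log2 fold change of 1.46, which was not called. IL6 and PTGS2 had a count of 0 in all 6 libraries.

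Of 13 genes tested that EGR1 is known to regulate, 3 were called higher and 1 lower, that is 23.1% and 7.69% beside 7.42% and 6.68% of all genes tested, with a median log2 fold change of 0.23. PDGFB, a growth factor chain, rose from 45.6 ± 8.33 to 95.8 ± 11.8 CPM and TGFB1 from 113 ± 11.8 to 176 ± 18.7 CPM (SD, n = 3), and NAB2 is given above. ICAM1, an adhesion receptor gene, fell from 193 ± 23.4 to 101 ± 11.8 CPM (SD, n = 3). FN1 was nearly level, at 9222 ± 774 and 9149.8 ± 772 CPM (SD, n = 3). GDF15 had a log2 fold change of 0.43, short of the threshold, and was called higher at 0.51 without siCON replicate 2. Whether the members act on any of these genes was not tested.

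**Figure D4:**
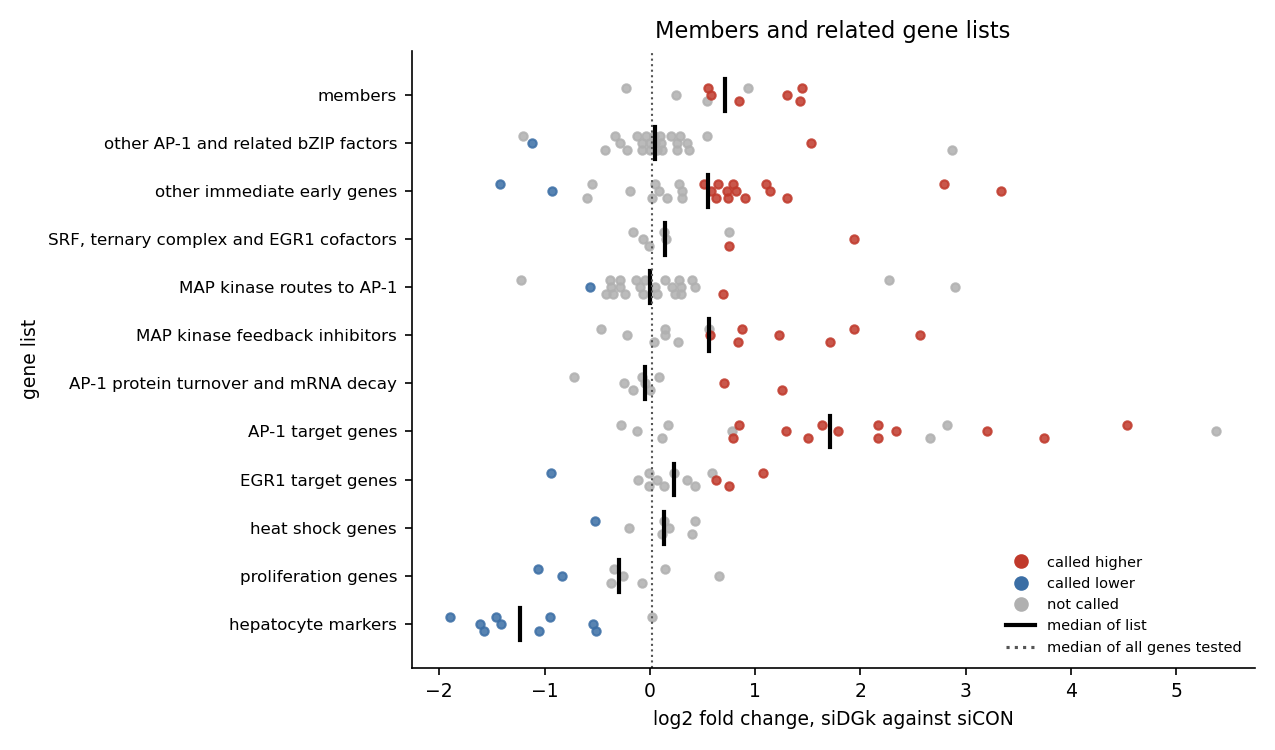
Log2 fold change, siDGk against siCON, of each gene tested in the members and in 11 related lists (points coloured by edgeR's call), with the median of each list as a black bar and the median of all 14476 genes tested as a dotted line. The members (median 0.72), other immediate early genes (0.55), MAP kinase feedback inhibitors (0.56) and AP-1 target genes (1.71) lie to the right of the dotted line, and hepatocyte markers (−1.23) to the left.

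Markers of cell types and states moved beside the members, and their part in the members' changes was not tested. Of 10 hepatocyte markers, 9 were called lower, beside 6.68% of all genes tested, and 0 higher (0 higher also at an unadjusted p under 0.05 in edgeR's test and in DESeq2). Their summed level was 59760.0, 55348 and 53332 CPM in the siCON libraries and 32996, 28829.8 and 27387 CPM in the siDGk libraries, so the hepatocyte label held in each library. ALB, the most abundant per kilobase in siCON but not in siDGk cells, fell from 16113 ± 2372 to 5401 ± 1038 CPM (SD, n = 3). No hepatocyte marker was at 0.

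Leukocyte markers summed to 1614 to 1706 CPM in the siCON and 1757 to 1901 CPM in the siDGk libraries, nearly all of it LYZ, without which the sum was 4.38 to 11.7 CPM, and 0 of 5 tested were called in edgeR's test (0 also at an unadjusted p under 0.05 and in DESeq2). Fibroblast and stellate cell markers, led per kilobase by ACTA2, summed to 44.2, 41.6 and 36.5 CPM in the siCON and 70.1, 77.4 and 47.5 CPM in the siDGk libraries, with THY1 at 0 throughout. Of 4 tested, edgeR called 1 higher and 1 lower, 25.0% each beside 7.42% and 6.68% of all genes tested (2 and 1 at an unadjusted p under 0.05). DESeq2, which was run without the filter on low counts, called 3 higher and 1 lower among all markers of the list. Its higher calls include markers outside the 4 tested, since it called neither COL1A2 nor ACTA2. The genes behind the sum were named after their values were seen. ACTA2 was at 28.3 ± 3.27 and 25.0 ± 3.28 CPM (SD, n = 3), while COL1A1, a collagen gene, was called higher, from 1.17 ± 0.752 to 19.4 ± 1.75 CPM (SD, n = 3). Its log2 fold change was 4.04 (SE 0.39), and shrinkage in DESeq2 reduced it to 2.51. COL1A2 was at 6.70, 10.4 and 0 CPM in siDGk replicates 1, 2 and 3, and COL3A1 was likewise highest in replicate 2 (15.6 CPM) and lowest in replicate 3 (0.414 CPM), beside at most 0.748 and 0.0533 CPM in siCON libraries. The low value in replicate 3 was also seen for VIM and CD44 above. In edgeR's test COL1A2 was not called, at a log2 fold change of 4.36 (SE 1.84), which lay between 3.63 and 9.61 with 1 library left out. COL1A2 was called without siDGk replicate 3 and with the replicate block, at 4.91 and 4.97. DESeq2 did not call it, and its shrunken value there was 0.07. PDGFRB, the lower call, had a log2 fold change of −1.02 and was not called without siCON replicate 1 (−1.02), 2 (−0.88) or 3 (−1.12) or siDGk replicate 1 (−1.13) or 3 (−0.81). Endothelial markers summed to 1.66, 1.39 and 2.29 CPM in the siCON libraries and to 4.48, 59.3 and 4.05 CPM in the siDGk libraries. The high value was that of siDGk replicate 2, and 0 of 3 tested were called in edgeR's test (2 were higher at an unadjusted p under 0.05). DESeq2 called 1 higher among all 5 markers of the list. VWF was at 31.4 CPM in siDGk replicate 2 and at most at 1.40 CPM in every other library. In siCON cells it was below PECAM1 and CDH5 per kilobase. Without siDGk replicate 2, JUN, JUNB, FOSL1, EGR1 and MAFF were still called higher, whereas ATF3 lost its call at a log2 fold change of 0.49. That fit keeps siDGk replicate 1, in which COL1A2, COL3A1 and VIM were also above the siCON libraries.

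For 7 heat shock genes, edgeR's test gave 0 calls higher and 1 (14.3%) lower, beside 7.42% and 6.68% of all genes tested, with a median log2 fold change of 0.13 (3 were higher and 1 lower at an unadjusted p under 0.05, and DESeq2 called 0 and 1). HSPB1, a small heat shock protein gene, had a log2 fold change of −0.52, which was −0.37 and not called without siCON replicate 2. Of 8 proliferation genes, 0 were called higher and 2 (25.0%) lower (0 higher and 3 lower at an unadjusted p under 0.05 in edgeR's test, 0 and 2 in DESeq2). AURKA and TOP2A, a mitotic kinase and a topoisomerase, had log2 fold changes of −1.06 (SE 0.15) and −0.83 (SE 0.11).

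**Figure D5:**
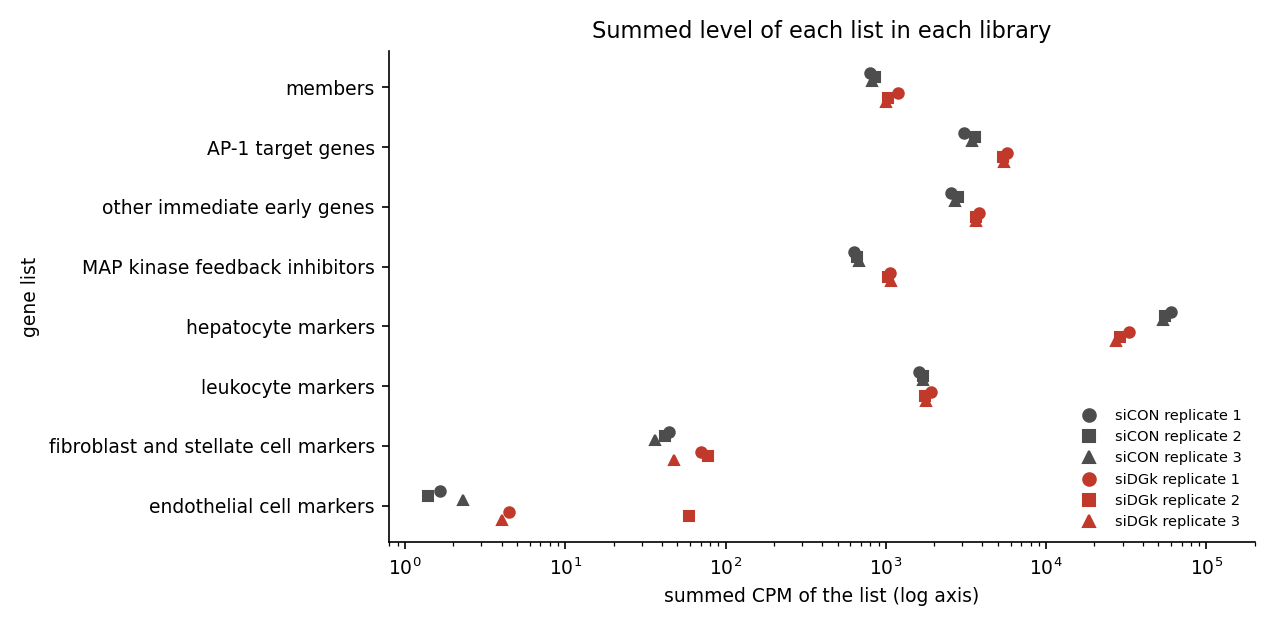
Summed CPM of the members and of 7 gene lists in each library on a log axis, with siCON in grey and siDGk in red and the replicate given by the symbol. Hepatocyte markers are lower in all siDGk libraries than in any siCON library, and the endothelial sum of siDGk replicate 2, 59.3 CPM, stands apart from the other 5 libraries.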

How the data were processed

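Reads had been cleaned of rRNA, tRNA, adapter and spike-in sequence by the authors, then aligned to GRCh38 (STAR 2.6.1, Gencode v27), cleared of low-complexity alignments and summed per gene by featureCounts 1.6.5, and the deposited table holds raw counts. Bowtie 1.1.2 also appears in the submitters' processing notes. Default counting uses no strand and leaves out reads with several alignments or on several genes. Strandedness of the libraries was not given in the sources used here.

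Low counts were removed by filterByExpr (minimum count 10) in edgeR 4.0.16 under R 4.3.3. After TMM normalization, condition was the sole term of a robust quasi-likelihood model, with Benjamini-Hochberg adjustment over all 14476 genes tested. Each SE was obtained as the absolute log2 fold change over the square root of F. Principal components used log2 CPM with a prior count of 2. Pairs of replicates differed beyond sampling noise, with chi-square values of 10.9 to 27.2 per degree of freedom. Gene coordinates and exon lengths, with all exons of a gene merged, came from Gencode v44 (GRCh38), whereas reads had been counted on Gencode v27. Scripts were tested on simulated data.

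The members and lists were chosen with earlier results of these data known. Named genes were the members, DGUOK, the called genes with the largest changes and the most abundant uncalled genes of each list, the most abundant marker of each cell type and markers at 0, and the genes nearest to JUN and JUNB, and some that this rule covers are not given. HOOK2, PLA2G6, COL1A1, COL1A2, COL3A1, PDGFRB, VIM and CD44 were added after the data were seen. Alternatives were RLE and upper-quartile normalization, no count filter, DESeq2 1.42.0 with and without shrinkage, replicate number as a block, each library left out in turn, and other fold change thresholds.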

Additional observations from a re-analysis of the deposited data

How the results depend on the processing

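Under RLE or upper-quartile normalization, no count filter, DESeq2 with and without shrunken fold changes, a replicate block, no fold change threshold and each library left out in turn, between 1704 and 2847 genes were called, beside 2041. Members called higher numbered 5 or 6 and members called lower 0 in each of these settings. With the replicate block the calls numbered 2077 (1083 higher, 994 lower), with 6 members called, and the members' calls were those of the fit without it. Replicate numbers did not pair the libraries, since deviations from the group means correlated across genes at 0.024, 0.0166 and −0.00224 for replicates 1, 2 and 3. An absolute log2 fold change above 1 left 819 genes (464 higher, 355 lower) and 3 members (FOSL1, EGR1 and JUNB), by construction of the threshold. JUN, JUNB, FOSL1 and EGR1 were called in all 12 refits, while ATF3 and MAFF lost their calls without the libraries named above. Each member kept the sign of its log2 fold change in all 12 refits. Of 43 other named genes called, 7 lost the call in some refit, and of 27 others not called, 6 were called in some refit. The latter include VWF, called with the replicate block at 3.36 and not called without it at 4.04 (SE 2.40). With 1 library left out, VWF lay between 0.19 and 5.36, and its lowest value over the 12 refits was 0.10. The cause of these changes was not tested. Other scalings moved the median log2 fold change of all genes from 0.0168 to between 0.0086 and 0.0175. Counts of FOS and FOSB were 169 or fewer per library, and whether depth or the spread between cultures set their lack of a call was not tested.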
